A study of Rattus norvegicus with 2 samples.

Results

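The nuclear-encoded genes of the mitochondrial respiratory chain and ATP synthase were followed by complex, through the cell types of aged and young rat meniscus, as 78 genes of the 25399 listed. Oxidative phosphorylation passes electrons along complexes I to IV of the inner mitochondrial membrane and uses the proton gradient they build to make ATP at complex V. Complex I (NADH dehydrogenase) and complex II (succinate dehydrogenase) take in electrons, complex III (the cytochrome bc1 complex) hands them to cytochrome c, and complex IV (cytochrome c oxidase) passes them to oxygen. Most subunits are encoded in the nucleus. Some core subunits of complexes I, III and IV and part of the membrane sector of complex V come from 13 mitochondrial genes, named Mt- in rat annotation. Cartilage-type cells live at low oxygen and are known to lean on glycolysis, as do mature neutrophils. The nuclear genes were taken by name: Nduf genes for complex I, Sdh genes for complex II, Uqcr genes for complex III, Cox4 to Cox8 genes for complex IV and Atp5 genes for complex V. The names matched 85 of the 25399 listed genes, and 78 of them had at least 20 UMIs (unique molecular identifiers, 1 per captured transcript) over both libraries. They were 34 of 35 genes for complex I, 4 of 4 for complex II, 9 of 9 for complex III, 15 of 20 for complex IV and 16 of 17 for complex V. The 7 genes left out were Cox6a2 with 11 UMIs, Atp5pb with 12, Ndufa1 with 1, and Cox7b2, Cox8b, Cox8c and Cox6c-ps1 with 0. Among those kept, Ndufv3, Uqcrb and Cox6b1 each stand on 2 gene IDs, so reads may be split between the copies and their values are uncertain. Ndufa4 is named as a complex I gene but is known to sit in complex IV, Atp5if1 is an inhibitor rather than a subunit of complex V, and Cox7a2l is known for joining complexes III and IV into supercomplexes.

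The samples were menisci, the fibrocartilage pads of the knee, from Rattus norvegicus, given as aged for 1 library and as young for the other. The tissue was digested with protease and then collagenase P, and viable cells were sorted by flow cytometry and read with the 10x 3' chemistry. The aged library held 47228750 UMIs over 8422 barcodes and the young library 65051972 UMIs over 9914 barcodes. Each age has a single library, which allows no test across animals: a difference was called at 1.5-fold or more, and each 95% interval covers counting error only. The labels state neither strain, sex, months of age nor how many animals were used.

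Barcodes with 500 genes or more and up to 20% Mt- UMIs were kept (6085 aged and 8773 young cells) and sorted by raw UMIs of single marker genes. The Top2a gate (cycling cells of any lineage) took 1036 aged and 1387 young cells. The Cd79a gate (B lineage) took 57 and 798, the Jchain gate (antibody-secreting cells) 107 and 23, and the S100a8 gate (neutrophil type) 772 and 1111. The Csf1r gate (monocytes and macrophages) took 280 and 197, the Alas2 gate (erythroid precursors) 35 and 117, and the Dcn or Chad gate (stromal cells without Ptprc UMIs) 528 and 187. The remaining 3200 aged and 4805 young cells met no threshold, and 70 and 148 cells with markers of more than 1 lineage were left out as possible doublets. Within each library, every marker list summed highest in its own gate: the neutrophil list, for example, summed to 123743 CPM (UMIs per 1000000 UMIs of the gate) in aged and 148769 CPM in young S100a8 cells, and to at most 4144 CPM in any other gate. Lists of cells without a gate stayed low in all 7 gates, at up to 396 CPM for T or NK cells and 2.24 CPM for endothelial cells. Of all kept cells, stromal cells were 8.68% in the aged and 2.13% in the young library, although both come from meniscus. The aged Cd79a gate stood apart: 10 of its 57 cells had at least 20 UMIs of the plasma cell gene Mzb1 and carried 62.8% of its UMIs, against 0 of 798 young cells. In the aged Alas2 gate 3 of 35 cells did so and carried 22.3% of its UMIs. The libraries shared 18 barcode sequences.

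The nuclear genes together were most abundant, as a share of all UMIs, in cycling and in Csf1r cells and least abundant in antibody-secreting cells. The Top2a gate summed to 27585 CPM in aged, against 26374 CPM in young cells, and the Csf1r gate to 24922 CPM in aged, against 25384 CPM in young cells. The Dcn or Chad gate lay in the middle, with 17597 CPM in aged, against 17080 CPM in young cells. The S100a8 gate summed to 12247 CPM in aged, against 12280 CPM in young cells, and the Jchain gate to 6356 CPM in aged, against 8532 CPM in young cells. Top2a and Csf1r were called above the median of the other 6 gates and Jchain below it, in both libraries. The Cd79a and Alas2 gates differed between the libraries. The Cd79a gate held 12046 CPM in aged, against 22397 CPM in young cells, and the Alas2 gate 12000 CPM in aged, against 7085 CPM in young cells. The Top2a and Csf1r gates held the first 2 ranks for each of the 5 complexes in both libraries, and Jchain the last rank for each complex in aged cells.

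**Figure D1:**
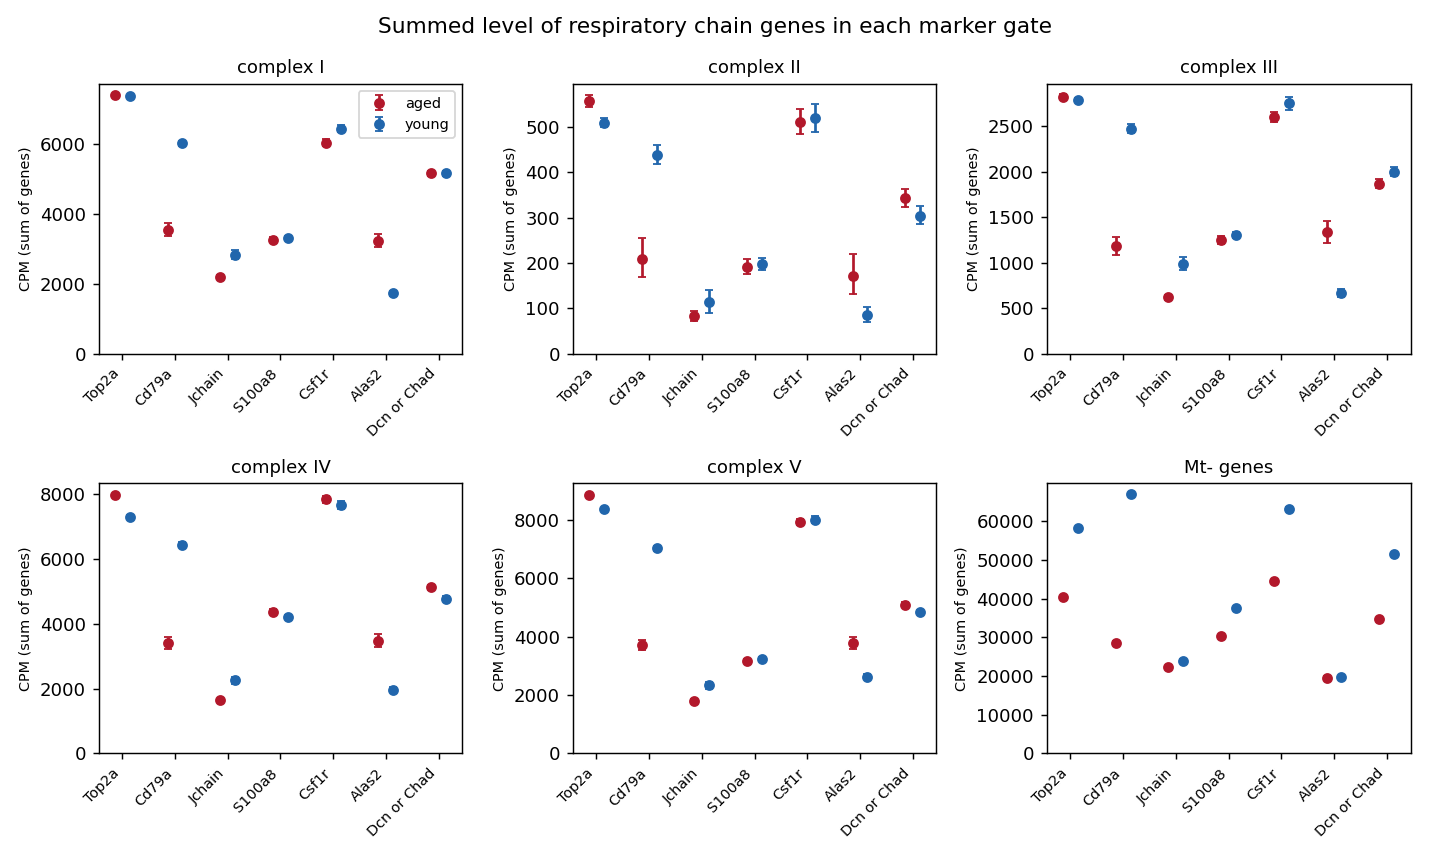
Summed CPM of the genes of each complex and of the 13 Mt- genes (y axis) in the 7 gates (x axis), with aged cells in red left of young cells in blue; bars are exact Poisson 95% intervals for counting error. In each panel for a nuclear-encoded complex the Top2a and Csf1r gates stand highest, while the Mt- sums of the Top2a gate are 40276 CPM in aged, against 58157 CPM in young cells.

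Per gene, 57 of 78 members were above and 0 below the other gates in Top2a cells in both libraries, where 31.3% and 0.947% of the 13519 genes with at least 20 UMIs were. In Csf1r cells 48 were above and 0 below, against 23.3% and 1.05% of all genes. In Jchain cells 0 were above and 61 below, against 1.46% and 40.7%. In S100a8 cells 2 were above and 33 below, against 9.92% and 16.7%, and in Alas2 cells 1 was above and 36 below, against 3.62% and 28.4%. Cd79a cells had 2 above and 0 below, against 6.75% and 2.14%, and stromal cells 4 above and 1 below, against 22.5% and 5.95%. These levels depend on what else a cell makes. The 65 other genes that each took over 0.5% of the UMIs of some gate, such as immunoglobulin, haemoglobin and neutrophil granule genes, filled 80.1% of the UMIs of aged and 73.4% of young Jchain cells, and 24.3% of aged and 18.7% of young Csf1r cells. With these genes left out of the totals, the Jchain gate summed to 31974 CPM in aged, against 32078 CPM in young cells, close to the Top2a gate with 34484 CPM in aged, against 32051 CPM in young cells. None of the 7 gates was then called above or below the others.

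A comparison that other genes do not enter is the make-up of the nuclear transcripts themselves, in which each member is a percent of the nuclear oxidative phosphorylation UMIs of its gate. Seen this way the S100a8 gate stood furthest apart, with 6 members above and 12 below the median of the other gates in both libraries. Complex IV made up 35.7% of these UMIs in aged and 34.4% in young S100a8 cells, and complex V 25.8% in aged and 26.4% in young ones. In Csf1r cells complex IV made up 31.5% in aged and 30.2% in young cells, and complex V 31.8% in aged and 31.5% in young cells. The other gates had between 1 and 5 members below and up to 6 above, except Top2a and Cd79a with 0 below. By the same rule 16.6% of all genes were above and 8.4% below in S100a8 cells. Leaving cells with at least 20 Mzb1 UMIs out of every gate but Jchain, a setting chosen after seeing the data, left all 6 and all 12 of these members called.

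The promoters of 4 members described below are shown for comparison. They are a raised erythroid gene, a gene raised per nuclear UMI in S100a8 cells, the common Cox4 form and the catalytic ATP synthase subunit. RefSeq promoters (GRCr8, from 250 bases before to 50 bases after the gene start) were matched by symbol for 65 of the 75 distinct symbols. Both strands were searched for 5 short motifs, and matches are in capitals in the lines below. The core of NRF1 sites, TGCGCA, was in 29.2% of the members' promoters and in 9.18% of the 19005 promoters of all protein-coding genes. The letters bound by ETS factors, CCGGAAG, were in 27.7% of the members' promoters and in 11.2% of all. The YY1 letters, AAGATGG, were in 26.2% of the members' promoters and in 7.58% of all. The letters bound by GATA factors, AGATAA, were in 13.8% of the members' promoters and in 9.93% of all. The box read as CCAAT was in 33.8% of the members' promoters and in 38.4% of all. By complex, the GATA letters were in 1 of 30 promoters of complex I, 0 of 4 of complex II, 0 of 6 of complex III, 3 of 11 of complex IV and 5 of 14 of complex V. A match shows only that the letters are there.
Atp5if1 (chr5:150026628-150026927, minus strand): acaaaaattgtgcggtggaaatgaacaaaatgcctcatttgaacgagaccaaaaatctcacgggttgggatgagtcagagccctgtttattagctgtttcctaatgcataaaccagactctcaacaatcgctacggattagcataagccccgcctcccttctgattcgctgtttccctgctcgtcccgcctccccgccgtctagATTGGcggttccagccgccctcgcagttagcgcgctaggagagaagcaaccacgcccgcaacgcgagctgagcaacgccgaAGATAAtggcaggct
Cox5a (chr8:66818034-66818333, plus strand): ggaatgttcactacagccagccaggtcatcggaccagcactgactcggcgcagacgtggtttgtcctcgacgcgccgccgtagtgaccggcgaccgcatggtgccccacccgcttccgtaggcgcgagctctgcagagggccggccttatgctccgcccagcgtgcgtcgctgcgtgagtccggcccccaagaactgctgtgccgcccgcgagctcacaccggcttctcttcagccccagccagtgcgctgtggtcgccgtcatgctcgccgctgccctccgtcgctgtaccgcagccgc
Cox4i1 (chr19:65630133-65630432, plus strand): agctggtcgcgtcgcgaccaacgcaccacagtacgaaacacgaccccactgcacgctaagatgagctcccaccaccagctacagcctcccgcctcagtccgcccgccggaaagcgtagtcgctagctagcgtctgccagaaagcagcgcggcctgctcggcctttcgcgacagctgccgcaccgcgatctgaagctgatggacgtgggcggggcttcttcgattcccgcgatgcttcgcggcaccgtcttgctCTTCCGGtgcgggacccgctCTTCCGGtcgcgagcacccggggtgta
Atp5f1b (chr7:1099808-1100107, plus strand): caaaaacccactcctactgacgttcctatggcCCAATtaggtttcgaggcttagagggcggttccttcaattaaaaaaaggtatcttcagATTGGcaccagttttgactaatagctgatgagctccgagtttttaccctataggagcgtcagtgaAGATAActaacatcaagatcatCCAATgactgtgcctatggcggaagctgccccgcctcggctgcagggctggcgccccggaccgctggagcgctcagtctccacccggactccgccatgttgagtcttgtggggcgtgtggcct
The Atp5if1 promoter, from the member most raised in erythroid cells, held the GATA letters and a CCAAT box. That of Atp5f1b held GATA letters and 3 CCAAT boxes. That of Cox4i1 held the ETS letters 2 times, and that of Cox5a held 0 matches.

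In the S100a8 gate the members above the other gates were 3 complex IV genes and 3 complex I genes. Cox6c, a small nuclear subunit of cytochrome c oxidase, made up 5.95% of the nuclear UMIs in aged (95% interval 5.70% to 6.19%, exact binomial) and 5.77% in young cells (5.58% to 5.97%), where the median of the other gates was 3.16% in the aged and 2.94% in the young library. Cox5a, which binds next to Cox4 in the enzyme, made up 4.27% in aged and 3.83% in young cells, against 1.36% and 1.89% in the other gates of the same libraries. Both genes took a higher share of nuclear UMIs in S100a8 cells than in each of the other 6 gates, in both libraries. In mean CPM of the libraries, Cox5a was highest in Csf1r cells (767 CPM) and Cox6c in Top2a cells (836 CPM). Cox8a, another small subunit, made up 4.98% in aged and 4.63% in young cells, against 3.11% and 2.81%. Ndufa8, an accessory subunit of complex I, made up 1.57% in aged and 1.64% in young cells, against 0.618% and 0.684%. The accessory subunits Ndufb9 and Ndufa7 were the other 2.

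The 12 members below the other gates in S100a8 cells included 6 of the 16 complex V genes. Atp5mc1, which encodes the proton-carrying c ring, made up 0.821% in aged and 0.829% in young cells, against 1.73% and 1.72% in the other gates. Atp5f1b, the catalytic beta subunit, made up 1.36% in aged and 1.35% in young cells, against 2.64% and 2.71%. The others were Atp5f1a and Atp5f1c (the alpha and gamma subunits of the catalytic head), Atp5po (the stalk subunit known as OSCP) and Atp5mc2 (a second gene for the same c ring). From complex I came Ndufa11, an accessory subunit of the membrane arm, with 0.537% in aged and 0.512% in young cells, against 1.26% and 1.46%. The core subunits Ndufs3 and Ndufs8 were also below, as were Uqcrc2, a core protein of complex III, and Cox6b2, whose counts were low. The S100a8 gate held both granule-rich and granule-poor cells. Cells with at least 20 UMIs of the granule genes Camp, Ngp and Ltf had Atp5mc1 at 0.515% in aged and 0.597% in young cells, and those with fewer had it at 1.19% in aged and 1.18% in young cells. Cox6c was at 6.58% in aged and 6.59% in young granule-rich cells, and at 5.19% in aged and 4.53% in young granule-poor cells. The departures were thus larger in granule-rich cells for both genes in both libraries. This did not hold for every called member. In aged cells Ndufb9 was at 2.52% in granule-rich and 2.86% in granule-poor cells, and in young cells at 2.02% and 1.69%. Ndufa7 was at 1.37% in granule-rich and 1.53% in granule-poor aged cells, and at 1.20% and 1.19% in young ones. The S100a8 gate also held 17389 CPM of the monocyte or macrophage marker list in young cells, nearly all of it Lyz2, which neutrophils also express.

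**Figure D2:**
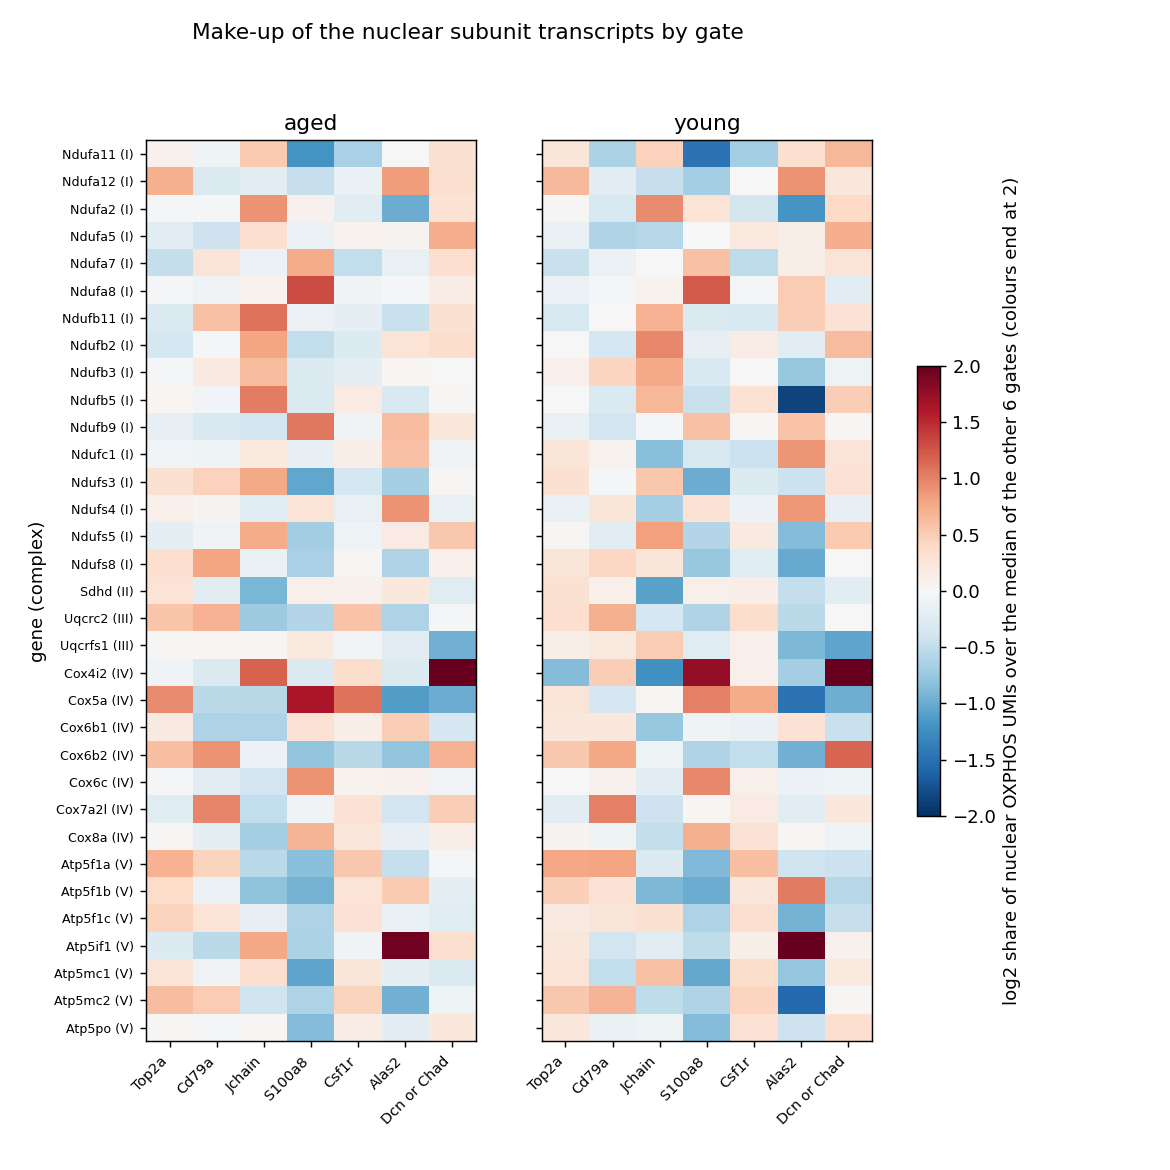
Named members called in at least 1 gate (rows, complex in brackets) by gate (columns), aged on the left and young on the right; colour is the log2 share of nuclear oxidative phosphorylation UMIs over the median of the other 6 gates. The S100a8 gate has 6 members above and 12 below, more than any other gate, and the Atp5if1 cell of the Alas2 gate reaches 1.94 in aged and 3.33 in young cells.

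Cox5a also marked part of the Csf1r gate. It made up 2.91% of nuclear UMIs in aged and 3.18% in young Csf1r cells and was the single member above the other gates there, with Ndufa11 the single member below, where 9.48% and 4.76% of all genes were. Csf1r cells with under 2 C1qa UMIs (monocyte type) had Cox5a at 3.24% in aged and 3.41% in young cells, while those with 2 or more (macrophage type) had it at 1.53% in aged and 1.78% in young cells. The monocyte-type part thus lay nearer the S100a8 gate than the macrophage-type part did, in both libraries. Cox5a was below the other gates in erythroid cells (0.912% in aged and 0.761% in young) and in stromal cells (1.00% in aged and 1.09% in young).

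Erythroid precursors stood apart by 1 gene above all. Atp5if1 encodes the inhibitor that stops ATP synthase from running in reverse, and work in zebrafish has tied it to heme synthesis. It made up 6.48% of nuclear UMIs in aged Alas2 cells (5.77% to 7.25%) and 13.7% in young ones (12.97% to 14.4%), against 1.67% and 1.34% in the other gates. In CPM it stood at 777 in aged and 969 in young Alas2 cells, and between 106 and 437 in the other gates of both libraries. It was the single member above the other gates in CPM in this gate. Complex V as a whole, Atp5if1 included, made up 31.4% of nuclear UMIs in aged and 37.1% in young Alas2 cells. Leaving out the 3 aged cells with at least 20 Mzb1 UMIs gave Atp5if1 at 6.54% in aged cells. Ndufs4, Ndufa12 and Ndufc1 of complex I were also above the other gates per nuclear UMI, and Ndufs8, Ndufa2, Cox5a, Cox6b2 and Atp5mc2 were below. Atp5mc2 made up 1.80% in aged and 1.11% in young cells, against 3.51% and 3.32%. By the same rule 7.32% of all genes were above and 13.7% below. The aged Alas2 gate held 35 cells, so its shares rest on 4384 nuclear UMIs.

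Antibody-secreting cells tilted toward complex I. It made up 34.8% of nuclear UMIs in aged and 33.2% in young Jchain cells, while no other gate passed 30.2%. All 6 members above the other gates there were accessory subunits of complex I: Ndufb11, Ndufb5, Ndufb2, Ndufb3, Ndufa2 and Ndufs5. Ndufb11 made up 3.48% in aged and 2.54% in young Jchain cells, against 1.62% and 1.55%. Below were Sdhd, a membrane anchor of complex II, with 0.312% in aged and 0.252% in young cells, against 0.612% and 0.556%, Atp5f1b, and the low-count second copy of Cox6b1. Of all genes, 5.85% were above and 16.2% below.

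In B lineage cells Cox7a2l stood out, with 2.93% of nuclear UMIs in aged (2.50% to 3.41%) and 2.85% in young Cd79a cells (2.74% to 2.96%), against 1.48% and 1.41% in the other gates. Young Cd79a cells without UMIs of the precursor genes Vpreb1, Vpreb2, Igll1 and Dntt had 3.60%, and those with them 1.96%. In aged cells the 42 without such UMIs had 2.68% and the 15 with them 3.33%, so the order of the parts differed between the libraries. The aged order is uncertain, since the 15 cells rest on 2134 nuclear UMIs and the gate held plasma-type cells. Without cells of at least 20 Mzb1 UMIs the whole aged gate was at 3.29%, and its parts were not taken again. Uqcrc2 and Cox6b2 were the other 2 members above, 0 members were below, and 11% of all genes were above and 3.1% below. Cycling cells were close to the common make-up: Ndufa12 and Atp5f1a were above, 0 members were below, and 10.8% of all genes were above and 4.99% below.

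Stromal cells were set apart by Cox4i2, the form of the regulatory Cox4 subunit that is known to be induced at low oxygen. It made up 0.365% of nuclear UMIs in aged (0.317% to 0.418%) and 3.94% in young cells (3.77% to 4.11%), and in each of the other gates at most 0.126%. Ndufa5 of complex I was also above, at 1.03% in aged and 1.08% in young cells, against 0.613% and 0.642%, as was the low-count Cox6b2. Cox5a and Uqcrfs1 were below; the second encodes the Rieske iron-sulfur protein, and made up 0.462% in aged and 0.450% in young cells, against 0.925% and 0.963%. By the same rule 23.1% of all genes were above and 7.14% below.

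Within complexes, the spread across gates differed by member. The ratio of the highest to the lowest gate, on the mean CPM of the libraries with 5 added, was 69.2 for Cox4i2 and 8.90 for Cox5a in complex IV, against 3.31 for Cox7b and 3.38 for Cox5b. In complex V it was 7.44 for Atp5mc2 and 7.34 for Atp5f1b, against 3.17 for Atp5me and 3.39 for Atp5mf, 2 small membrane subunits. In complex I it was 6.15 for Ndufa12 and 5.41 for Ndufa2, against 2.36 for Ndufb2 and 2.39 for Ndufa3. In complex II it was 7.20 for Sdhd, 5.95 for the iron-sulfur subunit Sdhb, 4.92 for the flavoprotein Sdha and 4.23 for the membrane anchor Sdhc. In complex III it was 5.03 for Uqcrc2 and 4.63 for the main copy of Uqcrb, against 3.29 for Uqcrh and 3.30 for Uqcrc1. The ratio compares gates and not genes, since levels of single genes were not scaled to length. Over the 14 values of gate and library, Atp5pd followed the nuclear sum with a Pearson r of 0.993 on log2(CPM + 5), and Cox7a1, Cox4i2 and Atp5if1 had 0.19, 0.20 and 0.23; the values share each gate's total, so r is a description.

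Between the ages, the nuclear sum differed by little in the 4 gates with at least 187 cells in each library, each taken whole. The log2 ratio of aged over young was 0.06 in the Top2a gate, 0.00 in the S100a8 gate (interval -0.02 to 0.02), -0.03 in the Csf1r gate and 0.04 in the Dcn or Chad gate. Within the last gate it was -0.35 (-0.40 to -0.29) in cells with at least 3 Chad UMIs. In Dcn cells with under 3 Chad UMIs it was -0.01 (-0.03 to 0.01). It was -0.42 in the Jchain gate, below the size for a call. The 2 gates past that size were Cd79a, at -0.89 (-0.93 to -0.86), and Alas2, at 0.76 (0.71 to 0.81). In the Cd79a gate the difference rested on the 10 aged cells with Mzb1 UMIs: without them the ratio was 0.09, and the median cell held 20153 CPM in aged, against 20210 CPM in young cells with all of them in. In the Alas2 gate the ratio was 1.01 without the 3 such cells, 0.05 among cells with 2000 to 10000 UMIs, and 0.33 with the 65 dominant genes out of the totals.

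Few single members differed by age in the larger gates. In the Top2a gate 0 of 78 members were higher and 4 lower in aged cells, where 13.7% and 14.9% of all genes with at least 20 UMIs were. The 4 were Cox4i2, Cox7a1, Ndufc1 and the low-count second copy of Ndufv3. Ndufc1, an accessory subunit of complex I, had 10.4 CPM in aged, against 22.0 CPM in young cells (-1.08, -1.37 to -0.81). In the S100a8 gate 0 of 73 were higher and 3 lower (Cox4i2, Ndufc1 and Ndufs1), where 9.91% and 27.6% were, and in the Csf1r gate 0 of 74 were higher and 2 lower (Cox4i2 and Ndufa3), where 10.4% and 22.1% were. Both shares lie under the background in all 3 gates, but the background was not matched to the members on UMI counts. Among members with at least 100 UMIs, 1 of 75 was lower in Top2a, 0 of 70 in S100a8 and 1 of 70 in Csf1r cells. The members nearest to a higher call there were Uqcrb (second copy) and Atp5mc3 in Top2a cells at 0.42 and 0.39, Ndufb9 and Uqcrfs1 in S100a8 cells at 0.50 and 0.35, and Sdhc and Atp5if1 in Csf1r cells at 0.32 and 0.24.

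In the gates whose totals shifted, the median member moved the same way as the median gene, by a different amount. The medians were -0.89 for members and -1.19 for all genes in the Cd79a gate. They were -0.43 and -0.64 in the Jchain gate and 0.82 and 0.57 in the Alas2 gate. In the Cd79a gate 63 of 75 members were lower and 0 higher, where 78.1% and 2.12% of all genes were, led by Ndufc1 at -1.95 and Uqcr10 at -1.83; Ndufc2 at -0.16 and the second copy of Uqcrb at 0.40 were at the other end. Without the 10 aged cells with Mzb1 UMIs, 2 of 75 were higher and 4 lower, where 20.3% and 24.1% were. In the Jchain gate 23 of 70 were lower and 1 higher, where 52.1% and 12.8% were. Among the lowest ratios was that of Uqcr10, a small subunit of complex III, at -1.43. The higher one was Atp5if1, with 183 CPM in aged, against 106 CPM in young cells (0.79, 0.44 to 1.16), followed by the main copy of Ndufv3 at 0.37. In the Alas2 gate 54 of 70 were higher and 0 lower, where 49.4% and 14.7% were. Ndufb5 at 2.35 and Ndufa3 at 1.79 were at the top, and Atp5if1 at -0.32 and Atp5md at -0.21 at the bottom. These last members thus lay below 0 in a gate whose members had a median of 0.82.

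**Figure D3:**
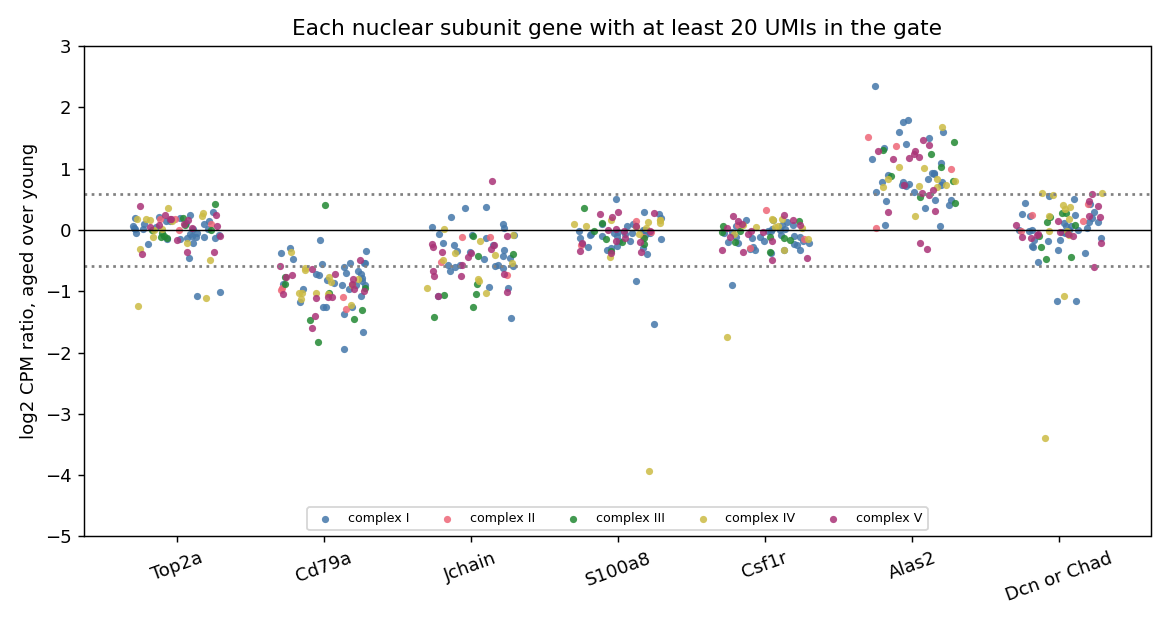
Log2 CPM ratio of aged over young cells (y axis) for each nuclear member with at least 20 UMIs in the gate (x axis), coloured by complex; dotted lines mark 1.5-fold. Most members of the Top2a, S100a8, Csf1r and Dcn or Chad gates lie between the lines, with Cox4i2 at -3.39 in the Dcn or Chad gate and at its floor of -3.93 in the S100a8 gate.

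In stromal cells 3 of 75 members were higher and 5 lower in aged cells, where 19.8% and 16.9% of all genes were. Cox4i2 had 64.3 CPM in aged, against 673 CPM in young cells (-3.39, -3.60 to -3.18). The stromal gate was not made up alike: cells with at least 3 Chad UMIs, a gene of cartilage-type cells, numbered 39 in the aged gate of 528 and 114 in the young gate of 187. Within these Chad cells Cox4i2 had 434 CPM in aged, against 1133 CPM in young cells (-1.38, -1.66 to -1.12). Among Dcn cells with under 3 Chad UMIs it had 29.4 CPM in aged, against 78.4 CPM in young cells (-1.42, -1.84 to -0.99). The gene was thus lower in aged cells in both parts, by less than in the gate as a whole. The split on Chad may not make the cells of the 2 ages alike. Over the whole gate Col2a1 had 3.40 CPM in aged, against 4984 CPM in young cells. Acan had 10.8 CPM against 339 CPM, and Col1a1 2420 CPM against 25388 CPM. Lum went the other way, with 1497 CPM in aged, against 793 CPM in young cells. Within the parts these markers were not compared. With each cell thinned to 2000 UMIs, 41.0% of 39 aged and 80.7% of 114 young Chad cells held a Cox4i2 UMI (71.8% and 97.4% unthinned, at medians of 6266 and 14914 UMIs per cell). In B lineage cells, which should lack it, 0 of 40 aged and 1.27% of 785 young thinned Cd79a cells did (medians of 3399 and 3652 UMIs), and 13.7% of young Dcn cells (6.77% to 23.8%) lay above that level. In aged Dcn cells the share was 4.42% (2.72% to 6.75%). The 40 aged Cd79a cells are too few to compare with this, since a count of 0 among them allows up to 8.81%. Larger aged gates held a Cox4i2 UMI in 0 of 642 S100a8 cells (up to 0.573%) and 0 of 275 Csf1r cells (up to 1.33%). In aged Top2a cells it was 3 of 1016 (0.295%, up to 0.860%). The interval of aged Dcn cells lay above these 3 gates, for counting error only. The lower Cox4i2 values of the Top2a, S100a8 and Csf1r gates rest on 10, 0 and 6 aged and 42, 71 and 15 young UMIs and 44 of the 71 came from 1 cell. The stromal marker list also summed lower in these gates, at 73.3 CPM in aged, against 265 CPM in young Top2a cells. It had 254 CPM against 707 CPM in S100a8 cells and 417 CPM against 611 CPM in Csf1r cells. In Csf1r cells its genes split. Prg4 had 57.1 CPM in aged, against 385 CPM in young cells, and Col2a1, Cilp and Acan were also lower. Col3a1 had 113 CPM against 25.5 CPM and Comp 137 CPM against 75.9 CPM, and Col1a1 and Lum were also higher. The part of stromal transcripts in these Cox4i2 values was not tested.

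Cox4i1, the common form of the same subunit, ran the other way in the gate, with 974 CPM in aged and 644 CPM in young stromal cells (0.60, 0.51 to 0.68). Within the parts it was not called, at 0.38 in Chad cells and 0.41 in Dcn cells. Cox7b and Atp5if1, both at 0.59, were the other higher members. In Chad and Dcn cells Atp5if1 was at 0.50 and 0.28, and Cox7b at -0.30 and 0.49, so that all 3 fell under the size for a call within the parts. The lower members beside Cox4i2 were Ndufa3 (18.5 CPM in aged, against 41.3 CPM in young cells), Ndufc1, Cox6b2 and Atp5md. Ndufa4 was not called in the gate (250 CPM in aged, against 362 CPM in young cells) but was lower in both parts, at -2.16 in Chad cells, from 17 aged and 457 young UMIs, and at -0.83 in Dcn cells. Of the tissue-specific forms, Cox7a1 had 4 aged and 14 young UMIs in stromal cells, and Cox6a2, Cox7b2 and Cox8b stayed under 20 UMIs in the whole series.

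**Figure D4:**
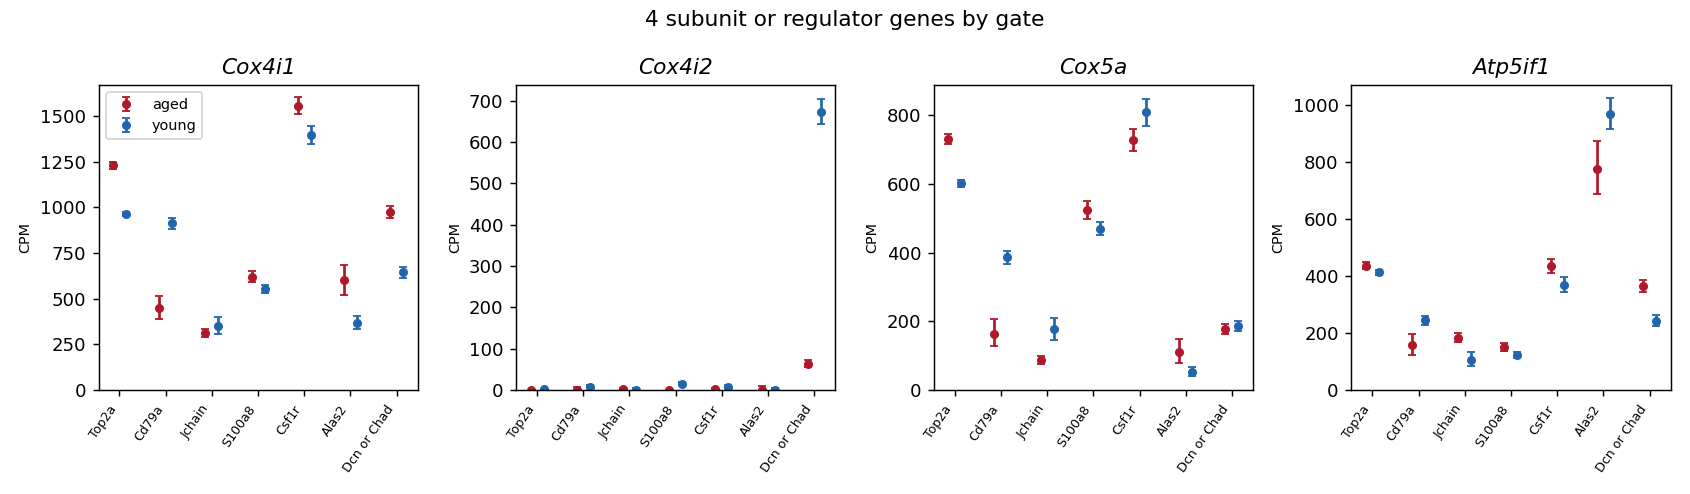
CPM of Cox4i1, Cox4i2, Cox5a and Atp5if1 (y axes) in the 7 gates (x axes), aged in red left of young in blue, with exact Poisson 95% intervals for counting error. Cox4i2 is at 673 CPM in young and 64.3 CPM in aged stromal cells and at most 15.4 CPM elsewhere, and Atp5if1 is highest in the Alas2 gate of both libraries.

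Over all genes above the level filter (4259), those whose 14 values were most like Cox4i2 were Smoc2, Col16a1, Scrg1, P3h4, Fibin and Sox9, with a Pearson r between 0.988 and 0.994. Among members Cox7a1 was most like it, with an r of 0.894. Cox4i2 was low in every gate but the stromal one. These r values thus rest mostly on the stromal values of the libraries and are a description. Other genes known to respond to low oxygen were lower in the aged stromal gate as a whole, but mostly not within its parts. Ndufa4l2, which is no member and is known to replace Ndufa4 at low oxygen, had 133 CPM in aged and 587 CPM in young stromal cells (-2.14, -2.29 to -1.98). Within Chad cells it had 1119 CPM in aged, against 987 CPM in young cells (0.18, 0.00 to 0.36), and within Dcn cells 40.6 CPM in aged, against 70.0 CPM in young cells (-0.79, -1.19 to -0.38). Its direction thus differed between the parts, while Cox4i2 was lower in both. Of the 10 low-oxygen genes linked to the chain, Cox4i2 included, 5 were lower and 0 higher in the gate, where 16.9% and 19.8% of all genes were. In Chad cells 2 were lower and 2 higher, where 33.8% and 17.9% of all genes were, and in Dcn cells 2 were lower and 0 higher, where 17.4% and 17.5% were.

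Glycolysis genes were also lower in the aged gate as a whole. Of 18 in the gate 12 were lower and 0 higher, against the same 16.9% and 19.8% of all genes, with a median of -0.74 where all genes had 0.06. In Chad cells 6 of 16 were lower and 0 higher, with a median of -0.39 where all genes had -0.24. In Dcn cells 2 of 16 were lower and 2 higher, with a median of 0.06 where all genes had -0.03. Pgk1, an enzyme of the pathway, had 178 CPM in aged, against 427 CPM in young cells of the gate (-1.26) and was at -0.41 in Chad and -0.30 in Dcn cells, neither past the size for a call. Slc16a3, a lactate exporter, had 4.94 CPM in aged, against 64.7 CPM in young cells of the gate, and in Chad cells 17.9 CPM in aged, against 112 CPM in young cells (-2.64, from 5 aged and 188 young UMIs).

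The genes that build and feed the chain were called by age in shares that varied by list and gate. The larger gates can be read against the shares of all genes given above, which for lower calls were 14.9% in Top2a, 27.6% in S100a8, 22.1% in Csf1r and 16.9% in stromal cells. Of the mitochondrial ribosome genes, which translate the Mt- messages, 5 of 72 were lower and 0 higher in aged Top2a cells, and 11 of 68 were lower and 1 higher in S100a8 cells. In Csf1r cells 7 of 69 were lower and 0 higher, and in stromal cells 2 of 68 were lower and 2 higher. Of the assembly factors, which help to put the complexes together, 6 of 43 were lower and 2 higher in Top2a cells and 10 of 31 were lower and 1 higher in S100a8 cells. In Csf1r cells 8 of 36 were lower and 1 higher, and in stromal cells 7 of 37 were lower and 3 higher. Of the genes of the electron carriers and their makers, 2 of 17 were lower and 0 higher in Top2a cells, 7 of 14 were lower and 1 higher in S100a8 cells, 4 of 16 were lower and 1 higher in Csf1r cells, and 2 of 15 were lower and 5 higher in stromal cells. Of 15 tricarboxylic acid cycle genes 0 were called in Top2a and in stromal cells, 1 was lower in Csf1r cells, and 2 were higher in S100a8 cells.

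The 13 Mt- genes had lower ratios of aged over young than the nuclear genes in 6 of 7 gates, with the sum past the size for a call in the Cd79a gate alone. Their summed log2 ratio was -0.53 in the Top2a gate, with 40276 CPM in aged, against 58157 CPM in young cells. It was -0.51 in the Csf1r gate, with 44445 CPM in aged, against 63233 CPM in young cells, and -0.56 in the Dcn or Chad gate, with 34782 CPM in aged, against 51406 CPM in young cells. These 3 sums were just under the size for a call. In S100a8 cells it was -0.30, in Jchain cells -0.10, in Alas2 cells -0.03 and in Cd79a cells -1.23, where the plasma-type cells bear on it as on the nuclear sum. Parts of the S100a8 and Csf1r gates passed the size for a call: granule-poor S100a8 cells (-0.66) and macrophage-type Csf1r cells (-0.67). Granule-rich S100a8 cells were at -0.11 and monocyte-type Csf1r cells at -0.48. Cells that met no marker threshold also passed it, at -0.95. The Top2a gate pools lineages, whose mix may differ between the libraries. The monocyte or macrophage list summed to 4197 CPM in aged, against 997 CPM in young cells, mostly Lyz2 (4025 CPM against 963 CPM). The erythroid list summed to 12238 CPM in aged, against 7405 CPM in young cells. Its gap lay in Hbb, with 4819 CPM against 49.2 CPM. Hba-a1 (4780 CPM against 4659 CPM) and Hba-a2 (2071 CPM against 2158 CPM) were nearly level. Hbb also differed within the Alas2 gate, with 183806 CPM in aged, against 2743 CPM in young cells. The part of the mix in the ratios of the Top2a gate was not tested. Among single genes, 7 of 13 were lower by 1.5-fold or more in Top2a cells, where 14.9% of all genes were, and 8 in Csf1r cells, where 22.1% were. In stromal cells 9 were lower, where 16.9% of all genes were, and in S100a8 cells 6, where 27.6% were. Mt-nd4, a complex I core subunit, was at -1.16 in Top2a, -1.02 in Csf1r and -1.01 in stromal cells, while Mt-co2, a complex IV core subunit, was at -0.27, -0.24 and -0.25 in the same gates.

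Set against the nuclear transcripts, the Mt- genes gave 1.46 UMIs per nuclear UMI in aged and 2.21 in young Top2a cells. The values were 1.78 in aged and 2.49 in young Csf1r cells, 1.98 in aged and 3.01 in young stromal cells and 2.48 in aged and 3.05 in young S100a8 cells. The ratio was lower in aged cells in 6 of 7 gates. The exception was the Jchain gate, with 3.51 in aged and 2.81 in young cells. With no limit on the Mt- share the Mt- log2 ratio was -0.50 in Top2a, -0.59 in Csf1r, -0.51 in stromal and -0.12 in S100a8 cells. Among cells with 2000 to 10000 UMIs it was -0.44 in Top2a, -0.29 in Csf1r, -0.91 in Alas2 and -1.30 in stromal cells, the last from 449 aged and 20 young cells. With the 65 dominant genes out of the totals it was -0.49 in Top2a, -0.41 in Csf1r, -0.61 in stromal and 0.32 in Jchain cells. In the Cd79a gate it was -0.43 without the cells with Mzb1 UMIs. Within the stromal parts the Mt- UMIs per nuclear UMI were 3.25 in aged and 3.48 in young Chad cells and 1.89 in aged and 2.46 in young Dcn cells. Among barcodes that the filter removed, Mt- genes took 18.3% of UMIs in aged and 17.1% in young. With 1 library per age, the age of the animals and the preparation of the library cannot be told apart.

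**Figure D5:**
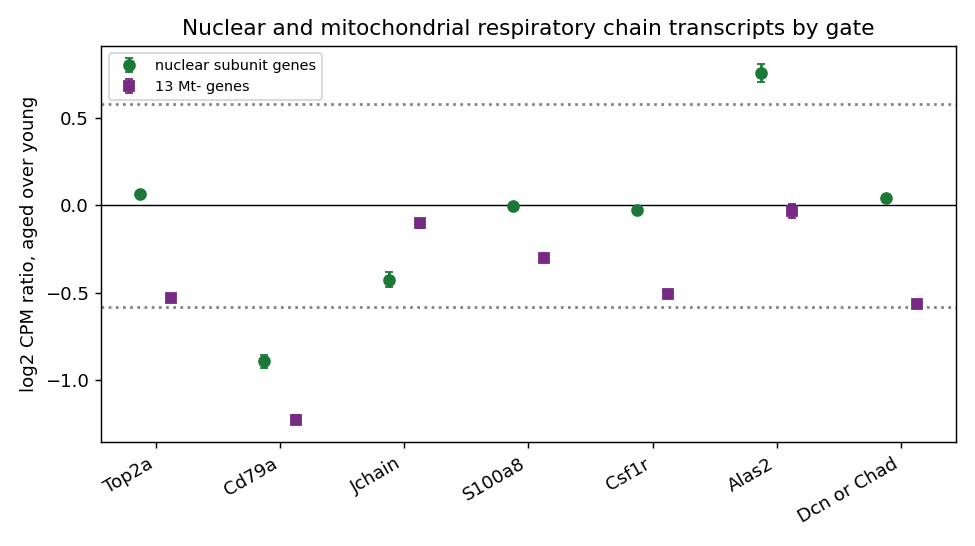
Log2 CPM ratio of aged over young cells (y axis) for the summed nuclear genes (green circles) and the 13 Mt- genes (purple squares) by gate (x axis), with exact conditional binomial 95% intervals; dotted lines mark 1.5-fold. The Mt- ratio lies below the nuclear one in 6 of 7 gates, all but Jchain.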

How the data were processed

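Single-cell RNA was read in 1 aged and 1 young meniscus library. The authors deposited raw UMI counts per gene and barcode, with Ensembl IDs and symbols, made with Cell Ranger 6.1.1 per the submitters' processing notes. Which genome build and gene models they used is not stated in the labels. Counts were summed per gate and library and divided by all UMIs of the gate (CPM). Thresholds on raw UMIs were 2 for Top2a, Cd79a, Csf1r and Alas2, 20 for Jchain and S100a8, and 3 for Dcn or Chad with 0 Ptprc UMIs. No doublet caller was run. The members, gene lists and tests were chosen with earlier results of these data known. Ratios of ages carry exact conditional binomial intervals, and a count of 0 was set to a floor of 3 counts per library and gate. Gates were compared as CPM + 5 over the median of the other 6, and make-up with 250 added per 1000000 nuclear UMIs; the make-up comparison was added after seeing the data. Members named by rule were the 2 with the widest and the 2 with the narrowest spread per complex (at least 50 CPM in the highest gate), the 2 with the highest and the 2 with the lowest age ratio per gate, and a fixed list of isoforms; members called in the make-up comparison, and Ndufa4l2, Slc16a3, Pgk1 and Mt- genes, were named after their values were seen. The script was tested on simulated counts. Scaling alternatives used edgeR 4.0.16 and DESeq2 1.42.0 factors only, in R 4.3.3; the rest ran in Python with numpy and scipy. Levels are 3' UMI counts without scaling to length. Values of 1 member are not reported here by name.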

Additional observations from a re-analysis of the deposited data

Results flagged for a closer look

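The nuclear sum ran in opposite directions in 2 gates. Aged over young, its log2 ratio was 0.76 in the Alas2 gate, where 54 of 70 members and 49.4% of all genes were higher. It was -0.89 in the Cd79a gate, where 63 of 75 members and 78.1% of all genes were lower. The difference between the gates was not tested, since each rests on 1 library per age. The median of all genes in each of these gates moved the same way, at 0.57 and -1.19. The aged Alas2 gate held 35 cells, and 10 of the 57 aged Cd79a cells carried 62.8% of that gate's UMIs. Without these 10 cells the Cd79a ratio was 0.09.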

How the results depend on the processing

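No paired analysis was possible because each age has 1 library. The aged over young sums of the Top2a, S100a8, Csf1r and Dcn or Chad gates stayed within 1.5-fold under every alternative run. The Cd79a sum (-0.89) was -0.52 with marker thresholds halved and -0.10 as a mean over cells, and turned to 0.15 among cells with 2000 to 10000 UMIs, 0.34 with edgeR's TMM, 0.36 with DESeq2's factors, 0.18 without the dominant genes and 0.0895 without cells of at least 20 Mzb1 UMIs. The Alas2 sum (0.76) was 0.44 with thresholds doubled, 0.0484 at 2000 to 10000 UMIs, 0.18 with TMM, 0.20 with DESeq2's factors and 0.33 without the dominant genes. The Jchain sum (-0.42) was -0.67 with thresholds halved, -0.08 with thresholds doubled, -0.0047 without the dominant genes, and turned to 0.22 with TMM and 0.23 with DESeq2's factors. TMM moved the median of the Cd79a gate by 1.23, of Jchain by 0.65 and of Alas2 by -0.58, and of the others by 0.22 or less. Against the other gates (mean log2 of both libraries), without the dominant genes Top2a fell to 0.15, Csf1r to 0.0982 and Jchain turned to 0.0861. At 2000 to 10000 UMIs Csf1r was 0.39, S100a8 -0.76 and Alas2 -1.20; as a mean over cells S100a8 was -0.84 and Alas2 -1.03; with thresholds doubled Alas2 was -1.16; C1qa cells alone gave Csf1r 0.65; and without Mzb1 cells Cd79a was 0.64. Doubled thresholds left 0 aged Cd79a cells and the depth window 0 young Jchain cells, which gave no value and left medians over the remaining gates. Beside the change of cells or totals that each setting makes, the cause was not tested. Without Mzb1 cells, the make-up calls that were lost are Ndufc1 and Ndufs8 of the Alas2 gate. Depth limits Cox6b2, Cox7a1, Ndufs1 and second gene copies, which rest on few UMIs.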

Other observations

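Cells that met no marker threshold made up 52.6% of aged and 54.8% of young kept cells. Their nuclear sum was 16476 CPM in aged, against 21804 CPM in young cells. Their Mt- genes gave 2.16 UMIs per nuclear UMI in aged and 3.16 in young cells. The complexes had like shares in both, with complex V at 31.3% in aged and 31.6% in young cells. The mix of these cells differed between the libraries. The B list summed to 1035 CPM in aged, against 3302 CPM in young cells, and the plasma list to 1479 CPM against 402 CPM. The monocyte or macrophage list summed to 1853 CPM against 726 CPM. What the mix adds to these values was not tested. Among barcodes removed by the filter, the nuclear genes summed to 5471 CPM in aged and 4530 CPM in young barcodes, with 33.4 Mt- UMIs per nuclear UMI in aged and 37.7 in young ones.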
